A study of Mus musculus with 4 samples.

Results

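The transcripts of 31 genes of the meiotic chromosome axis, the synaptonemal complex and meiotic recombination were followed in single cells of neonatal mouse testis, with and without deletion of *Cnot3* in germ cells. The members were named by gene symbol, by their role in meiosis, and all 31 were found among the 30828 genes of the deposited matrices. CD9+/THY1+ testis cells were sorted at P8 from control mice, which carried *Cnot3* flox/flox without Cre (the sample labels call them wild-type), and from *Cnot3*-cKO mice, which carried *Cnot3* flox/flox with *Ddx4*-creER, a tamoxifen-inducible Cre under the promoter of the germ cell gene *Ddx4*. Both genotypes received 4-OHT, the active form of tamoxifen. The sample labels put the first injection at P1 throughout and the last at P1 and P2 for the 2 control samples and at P3 and P4 for the 2 *Cnot3*-cKO samples, whereas the study's methods give 1 schedule of P1 to P3. Each genotype's 2 samples, which the labels name for the sequencing instruments, arrived as 1 merged matrix of raw UMI counts (a UMI marks 1 captured RNA molecule), so there was 1 library per genotype, no replicate error and no test between genotypes. Intervals below are exact 95% intervals that cover counting error only, and a difference between the libraries may belong to the animals, the sort, the labelled injection days or the genotype, which cannot be told apart.

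Meiosis reduces the chromosome set after a long prophase in which homologous chromosomes find each other through programmed DNA breaks. Meiotic cohesins and axis proteins organise each chromosome into loops, the synaptonemal complex zips the homologs together, and recombinases and mismatch-repair homologs turn some breaks into crossovers. At the age studied, most germ cells are spermatogonia: GFRA1 marks the undifferentiated stem-like cells, NEUROG3 the progenitors and KIT the differentiating cells that precede meiotic entry, while CNOT3 is a subunit of the CCR4-NOT complex, which shortens the poly(A) tails of mRNAs.

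The control and *Cnot3*-cKO libraries held 8341 and 9336 called cell barcodes with medians of 14482 and 13148 UMIs, and 18 called barcode sequences occurred in both. Germ barcodes, those with 10 or more UMIs of *Ddx4* plus *Dazl*, numbered 1350 in the control (16.2% of called barcodes) and 564 in *Cnot3*-cKO (6.04%), with medians of 42254 and 46014 UMIs. Levels are given as counts per 1000000 UMIs (CPM) summed over these barcodes. Because the chemistry tags the 3′ end of each RNA, CPM was not divided by gene length, and differences in capture between genes were not measured. *Cnot3* stood at 71.4 CPM in control and 39.8 CPM in *Cnot3*-cKO germ barcodes, a log2 ratio of -0.84 (95% interval -0.94 to -0.75), while barcodes gated as Sertoli cells held 63.7 and 67.5 CPM. The exons that Cre removes are not named in the labels or the methods, and a 3′ tag outside them would not report the deletion. Germ barcodes were not free of somatic RNA: 25.9% of them in the control and 39.9% in *Cnot3*-cKO also held 10 or more UMIs of Sertoli or interstitial gate genes. All 8 Sertoli genes with enough UMIs were higher in *Cnot3*-cKO germ barcodes (median log2 ratio 0.39), all 8 interstitial genes were lower (median -0.19), and 3 of 4 macrophage genes were lower past 1.5-fold (median -3.23; *C1qa* at 7.24 and 0.61 CPM, *Lyz2* at 8.25 and 1.11 CPM and *Csf1r* at 1.81 and 0.15 CPM), and the endothelial gene *Pecam1* was higher (log2 ratio 0.73). Counts were summed over whole groups, so more molecules per cell and more cells with molecules are separated only where single barcodes are described.

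Transcripts of the meiotic genes were already abundant in germ barcodes of the P8 control testis. Together the 31 members took 0.206% of control germ UMIs and 0.257% of *Cnot3*-cKO germ UMIs, or 2061 and 2574 CPM. In the control, 5 members stood at 100 CPM or more, 18 between 10 and 100 CPM, and 8 below 10 CPM. The high end belonged to structural genes of the chromosome, and the low end to *Spata22*, *Meiob*, *Msh4*, *Rad21l*, *Prdm9* and *Spo11*. No single germ barcode held more than 7.69% of any member's UMIs in either library, a share reached by *Spata22* with 26 UMIs in *Cnot3*-cKO, so no level rested on 1 barcode. Of the 31 genes, 6 overlap another annotated gene on the same strand (*Dmc1*, *Mei4*, *Rec114*, *Mlh3*, *Spata22* and *Trip13*), and how reads in those overlaps were assigned was not tested.

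**Figure D1:**
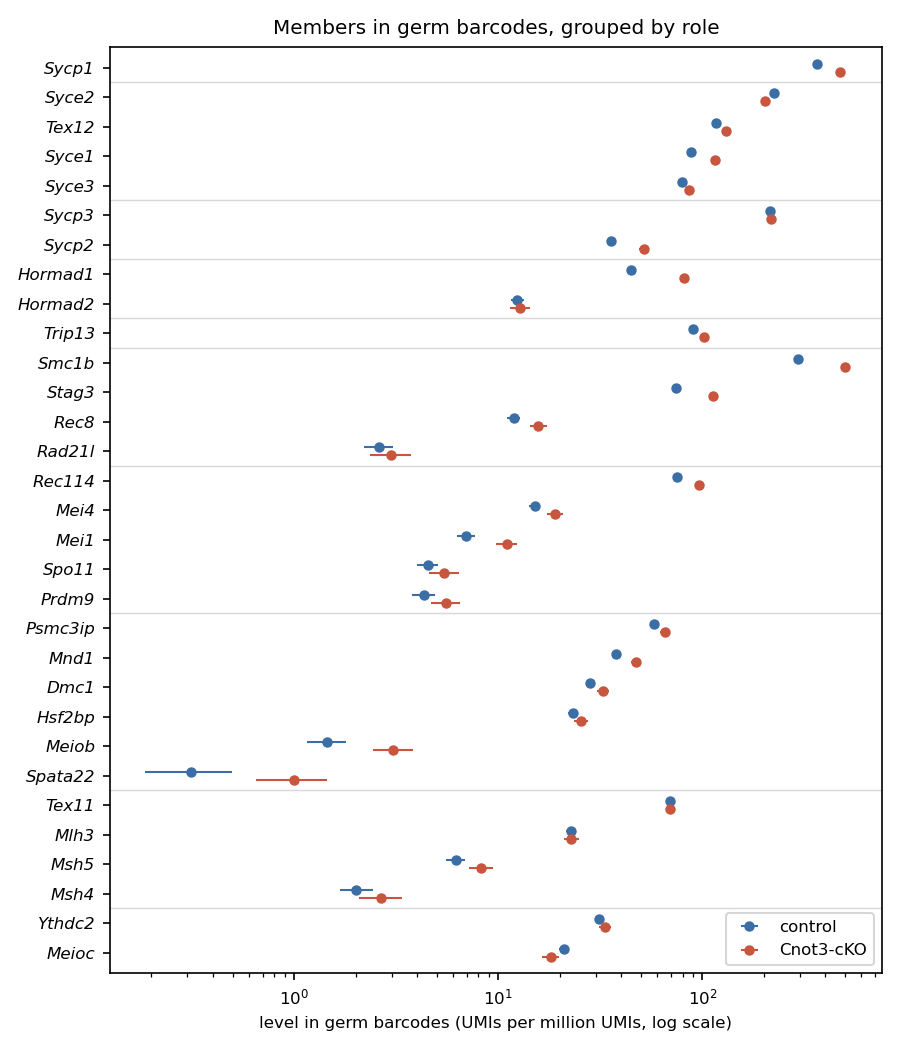
Levels of the 31 members in germ barcodes, as CPM on a log axis, with 1 point per library and exact 95% Poisson intervals for counting error only, ordered by role. Control levels run from 0.31 CPM for *Spata22* to 366 CPM for *Sycp1*, and the *Cnot3*-cKO point lies to the right of the control point for most genes.

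The genes of the synaptonemal complex covered a wide range of levels, and none of the 7 passed 1.5-fold between the libraries. *Sycp1*, which encodes the transverse filament that bridges the homologs, stood at 366 CPM (95% interval 361 to 371) in the control and 474 CPM (466 to 483) in *Cnot3*-cKO, a log2 ratio of 0.38. Of the lateral element genes, *Sycp3* stood at 214 and 217 CPM. *Sycp2*, its partner on the axis, stood at 35.8 and 51.5 CPM (log2 ratio 0.52, 0.42 to 0.62). The central element proteins join the ends of the transverse filaments in the middle of the complex. Of these, *Syce2* was, with *Meioc* and *Tex11*, 1 of 3 members with a ratio below 0, at 225 and 202 CPM (log2 ratio -0.16, -0.20 to -0.11). *Syce1* stood at 87.7 and 116 CPM, *Syce3* at 79.4 and 86.1 CPM, and *Tex12* at 116 and 131 CPM.

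The cohesin genes held 2 of the 5 members that were higher in *Cnot3*-cKO past 1.5-fold. Cohesin rings hold sister chromatids together, and the 4 measured here encode subunits that germ cells use in place of, or beside, the mitotic ones. *Smc1b* (chr15:85064689-85131964, minus strand), the meiotic SMC subunit, stood at 294 CPM (290 to 298) in the control and 502 CPM (494 to 511) in *Cnot3*-cKO, a fold of 1.71 (log2 ratio 0.77, 0.74 to 0.81). *Stag3* (chr5:138280240-138312393, plus strand), the accessory subunit, stood at 74.3 CPM (72.1 to 76.6) and 112 CPM (108 to 116), a fold of 1.51 (log2 ratio 0.59, 0.53 to 0.66), so its value lay at the fold limit. The kleisin subunits that close the ring were much lower. *Rec8* stood at 11.9 and 15.7 CPM (log2 ratio 0.40), and *Rad21l* at 2.61 and 2.98 CPM from 150 and 78 UMIs (log2 ratio 0.19, -0.22 to 0.59), a difference not detectable at this depth.

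The HORMA-domain genes did not move together. *Hormad1* (chr3:95559677-95587671, plus strand), which marks unsynapsed axes and promotes DNA breaks, stood at 44.6 CPM (42.9 to 46.3) in the control and 81.8 CPM (78.3 to 85.3) in *Cnot3*-cKO, a fold of 1.83 (log2 ratio 0.87, 0.79 to 0.96). Its paralog *Hormad2* stood at 12.4 and 12.8 CPM (log2 ratio 0.04, -0.15 to 0.23). *Trip13*, the ATPase that strips HORMADs from synapsed axes, stood at 89.9 and 102 CPM (log2 ratio 0.18).

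All 5 genes of break formation had a log2 ratio above 0, and 1 of them passed 1.5-fold. *Mei1* (chr15:82069996-82126814, plus strand), which is needed for the breaks to form, stood at 6.98 CPM (6.31 to 7.70) and 11.0 CPM (9.76 to 12.3), a fold of 1.58 (log2 ratio 0.66, 0.43 to 0.88). *Rec114* and *Mei4*, partners in the complex that activates the break machinery, stood at 75.3 and 96.5 CPM and at 15.1 and 18.9 CPM. *Spo11*, which cuts the DNA, stood at 4.51 and 5.42 CPM (log2 ratio 0.27, -0.04 to 0.57). *Prdm9*, the histone methyltransferase that places the breaks, stood at 4.32 and 5.54 CPM (log2 ratio 0.36, 0.05 to 0.66). The transcript of the break enzyme itself was therefore among the rarest of the module at this age.

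Among the genes of strand exchange, only the rarest measured one passed the fold. *Meiob* (chr17:24804289-24839788, plus strand) encodes a protein that binds single-stranded DNA with SPATA22, and stood at 1.45 CPM (1.15 to 1.79) from 83 UMIs in the control and 3.06 CPM (2.42 to 3.80) from 80 UMIs in *Cnot3*-cKO. Its fold was 2.11 (log2 ratio 1.08, 0.62 to 1.54). *Spata22* had 18 and 26 UMIs, below the 100 UMIs over both libraries that a ratio needed here, and is given by its levels of 0.31 and 0.99 CPM. *Dmc1*, the meiotic recombinase, stood at 28.3 and 32.5 CPM. Its helpers *Psmc3ip* and *Mnd1* stood at 57.7 and 65.3 CPM and at 37.8 and 47.4 CPM, and *Hsf2bp*, which brings BRCA2 to the breaks, at 23.3 and 25.4 CPM.

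None of the 4 crossover genes or the 2 regulators of meiotic entry passed 1.5-fold. *Msh4* stood at 2.02 and 2.67 CPM and its partner *Msh5* at 6.18 and 8.25 CPM (log2 ratios 0.40 and 0.42, the first with an interval of -0.04 to 0.84). *Mlh3*, the mismatch-repair homolog that acts at crossovers, stood at 22.6 and 22.8 CPM, and *Tex11*, an X-linked crossover gene, at 69.8 and 69.7 CPM. MEIOC and YTHDC2 form an RNA-binding pair that lets germ cells leave the mitotic programme. *Meioc* had the lowest ratio of the 30 members with enough UMIs, at 21.1 and 18.1 CPM (log2 ratio -0.22, -0.38 to -0.07), and *Ythdc2* stood at 31.3 and 33.4 CPM (0.09). The sign for *Meioc* was not stable: it ranged from -0.56 to 0.39 over 16 settings and was above 0 in 2 of them.

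In all, 5 of 30 members were higher in *Cnot3*-cKO germ barcodes past 1.5-fold, against 6.42% of all 13350 genes with 100 UMIs, and 0 were lower, against 3.35% of all genes. These 5 were *Meiob*, *Hormad1*, *Smc1b*, *Mei1* and *Stag3*. The log2 ratio was above 0 for 27 of the 30 members and for 51.9% of all genes, with medians of 0.30 and 0.01. By role, the median log2 ratio was 0.50 for the 4 cohesin genes, 0.46 for the 2 HORMA-domain genes, 0.36 for the 5 genes of break formation, 0.27 for the 2 lateral element genes, 0.21 for the 4 crossover genes, 0.20 for the 5 measured genes of strand exchange, 0.14 for the 4 central element genes and -0.07 for the pair of entry regulators. *Hormad1* stayed past the fold in all 16 settings run, *Meiob* in all 11 that left it enough UMIs, *Smc1b* in 15 of 16, *Mei1* in 13 of 15 and *Stag3* in 8 of 16. *Smc1b* fell under the fold with the study's filters (0.53), which kept 236 and 65 germ barcodes. Without the germ barcodes that held 10 or more somatic UMIs (1000 and 339 remained), 6 of 30 members were higher past the fold: *Hormad1* (0.84), *Smc1b* (0.75), *Mei1* (0.72) and *Meiob* (0.95) were among them, *Prdm9* (0.60) and *Msh5* (0.62) joined them, and *Stag3* stood at 0.57. In these barcodes 6.44% of all 11994 genes were higher past the fold and 4.05% lower, against 0 members lower.

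**Figure D2:**
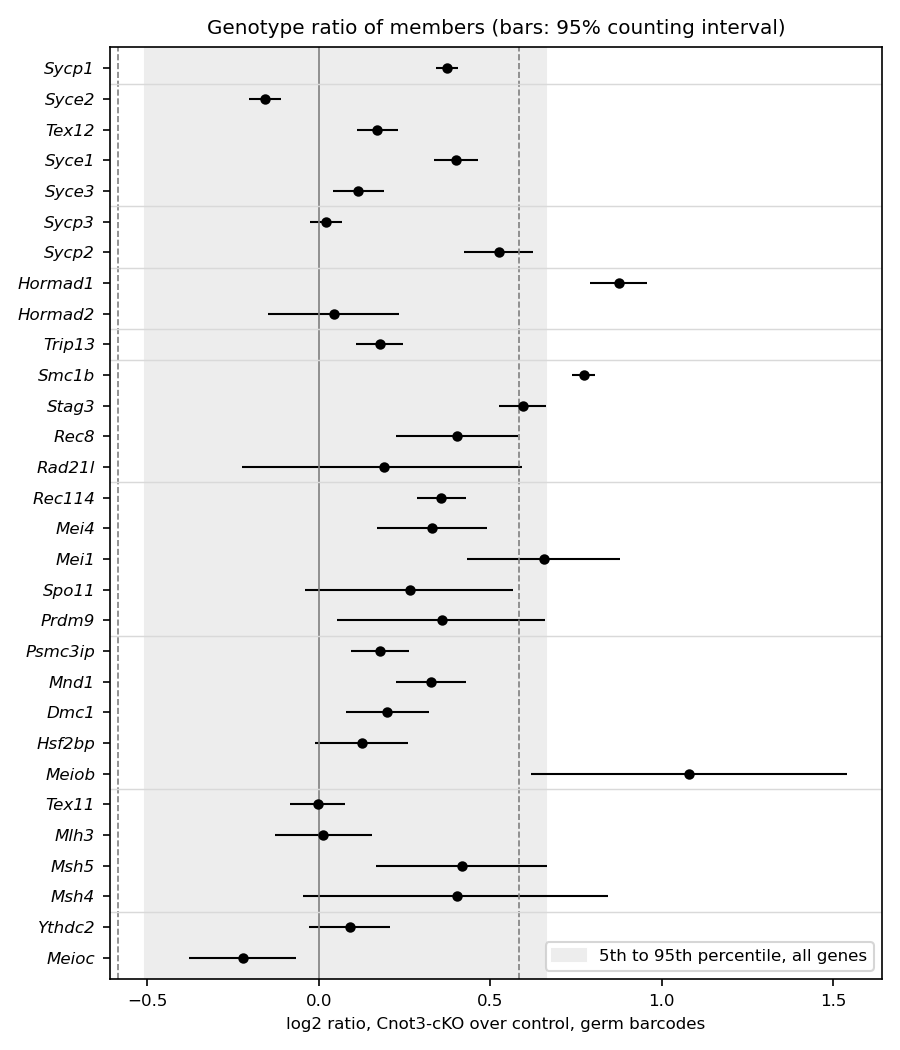
Log2 ratio of the level in *Cnot3*-cKO over control germ barcodes for each member, with exact 95% intervals for counting error only and 1 library per genotype. The grey band spans the 5th to 95th percentile of all genes (-0.51 to 0.66) and the dashed lines stand at 1.5-fold. Of the 30 members with enough UMIs 27 lie above 0, from *Meioc* at -0.22 to *Meiob* at 1.08.

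The start regions of the members were read from RefSeq (GRCm38.p6), since *Hormad1*, *Smc1b* and *Stag3* differed most among members above 40 CPM. Windows of 300 bases, from 250 before to 50 after the transcription start, were found for 27 of 31 members and were not found for *Ythdc2*, *Spo11*, *Tex11* and *Meiob*. They were searched on both strands for CACGTG, the E-box to which MGA with MAX binds, and for TCCCGC, a core of sites for E2F factors. The motifs share no base with each other in these windows. CACGTG occurred in the windows of 7 members (25.9%; *Sycp1*, *Sycp3*, *Syce2*, *Tex12*, *Hormad1*, *Stag3* and *Rec114*), and in those of 8.09% of all 27025 genes with a window. TCCCGC occurred in 17 members (63.0%) and in 22.1% of all genes, and each of the 7 members with the E-box also held it. The first 260 bases of the windows are printed for these 3 genes, 5′ to 3′ in the direction of transcription, with the motif matches in capitals (GCGGGA is TCCCGC on the other strand).
*Hormad1* (chr3:95559427-95559686, plus strand): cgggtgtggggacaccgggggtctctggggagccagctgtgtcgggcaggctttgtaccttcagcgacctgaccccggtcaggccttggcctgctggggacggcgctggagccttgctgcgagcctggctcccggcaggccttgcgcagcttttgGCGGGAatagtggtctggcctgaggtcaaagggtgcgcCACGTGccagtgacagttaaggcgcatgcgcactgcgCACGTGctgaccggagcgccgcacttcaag
*Smc1b* (chr15:85131948-85132207, minus strand): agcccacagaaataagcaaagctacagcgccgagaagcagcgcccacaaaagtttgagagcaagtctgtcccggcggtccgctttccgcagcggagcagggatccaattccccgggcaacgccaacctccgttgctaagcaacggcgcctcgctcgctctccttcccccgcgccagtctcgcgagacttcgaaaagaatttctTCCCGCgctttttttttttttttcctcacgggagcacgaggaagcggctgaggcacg
*Stag3* (chr5:138280259-138280518, plus strand): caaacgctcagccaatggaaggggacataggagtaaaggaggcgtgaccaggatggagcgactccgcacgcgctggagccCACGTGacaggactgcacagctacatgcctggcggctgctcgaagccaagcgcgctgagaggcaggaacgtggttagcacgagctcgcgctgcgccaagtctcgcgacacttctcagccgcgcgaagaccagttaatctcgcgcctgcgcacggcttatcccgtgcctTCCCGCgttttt
*Hormad1* held the E-box at 2 places, and a further RefSeq start of this gene gave a window shifted by 2 bases with the same matches. *Smc1b* held no E-box and 1 TCCCGC, and *Stag3* held 1 of each. The window of *Mei1*, another member past the fold, held neither motif, and its RefSeq start lies within the gene's annotated span. The window of *Stag3* also lies wholly within that gene's annotated span, which begins at 138280240, before the first printed base. These matches describe letters in a window and no binding was measured, and both motifs were chosen after values of these genes had been seen.

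To ask at which spermatogonial stage the genes were transcribed, germ barcodes were split by 2 or more UMIs of *Kit*, else of *Neurog3*, else of *Gfra1*. The control held 479 *Kit*-positive, 134 *Neurog3*-positive and 218 *Gfra1*-positive barcodes and 519 with no stage marker, and *Cnot3*-cKO held 179, 12, 183 and 190. The 12 *Neurog3*-positive barcodes of *Cnot3*-cKO are too few to describe single members. Both *Kit* and *Gfra1* at 2 or more UMIs occurred in 23 and 31 barcodes.

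Most members differed by less than 2-fold between *Kit*-positive and *Gfra1*-positive barcodes. In the control, 3 of 27 members were higher in *Kit*-positive than in *Gfra1*-positive barcodes past 2-fold, against 7.01% of all 11149 genes, and 1 was lower, against 6.48%. The median log2 ratio of the members was 0.22, and that of all genes 0.11. *Prdm9* had the highest ratio. It stood at 6.73 CPM from 147 UMIs in *Kit*-positive and 0.99 CPM from 9 UMIs in *Gfra1*-positive barcodes (log2 ratio 2.76, 1.80 to 3.92). *Kit*-positive barcodes were divided into 101 with 2 or more UMIs of *Meioc* and 378 with fewer. *Prdm9* stood at 13.7 CPM in the first and 4.91 CPM in the second, and at 0.77 CPM in *Neurog3*-positive barcodes. *Meioc* itself, which was used for that division, stood at 22.2 CPM in *Kit*-positive and 8.62 CPM in *Gfra1*-positive barcodes (log2 ratio 1.36, 1.02 to 1.73), and *Mei4* at 20.4 and 10.1 CPM (1.02, 0.69 to 1.36). Of the genes under the fold, *Sycp3* stood at 258 and 149 CPM (0.79, 0.70 to 0.87) and *Sycp1* at 431 and 303 CPM (0.51, 0.45 to 0.57).

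The log2 ratio was below 0 for 6 of the 27 members in the control, against 4573 of all 11149 genes, and *Mnd1* was the one past 2-fold. *Mnd1* (chr3:84087933-84155786, minus strand) stood at 23.5 CPM in *Kit*-positive and 47.6 CPM in *Gfra1*-positive control barcodes, a log2 ratio of -1.02 (-1.21 to -0.83), with 57.9 CPM in *Neurog3*-positive and 19.2 CPM in *Kit*- and *Meioc*-positive barcodes. *Hsf2bp* stood at 16.2 and 29.6 CPM (-0.87, -1.11 to -0.64), and *Spo11* at 2.98 and 4.97 CPM from 65 and 45 UMIs (-0.74, -1.31 to -0.16). *Msh5*, *Hormad1* and *Syce3* had log2 ratios of -0.54, -0.29 and -0.16. The 101 barcodes with both *Kit* and *Meioc* held 3 UMIs of *Spo11*.

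In *Cnot3*-cKO, 1 of 25 members was higher past 2-fold in *Kit*-positive than in *Gfra1*-positive barcodes (*Meioc*, 27.1 and 6.37 CPM, log2 ratio 2.09), against 3.77% of all 10034 genes, and 0 were lower, against 4.14%. *Prdm9* stood at 8.33 CPM from 73 UMIs and 1.68 CPM from 15 UMIs, below the UMI minimum. *Mei4* stood at 21.3 and 16.4 CPM (0.38, 0.06 to 0.70) and *Mnd1* at 32.6 and 57.4 CPM (-0.81, -1.03 to -0.60). The signs of *Stag3* and *Smc1b* differed between the libraries: *Stag3* had a log2 ratio of 0.14 (0.01 to 0.28) in the control and -0.36 (-0.48 to -0.23) in *Cnot3*-cKO, and *Smc1b* had 0.22 (0.16 to 0.28) and -0.13 (-0.19 to -0.07). With 1 library per genotype this difference was not tested.

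**Figure D3:**
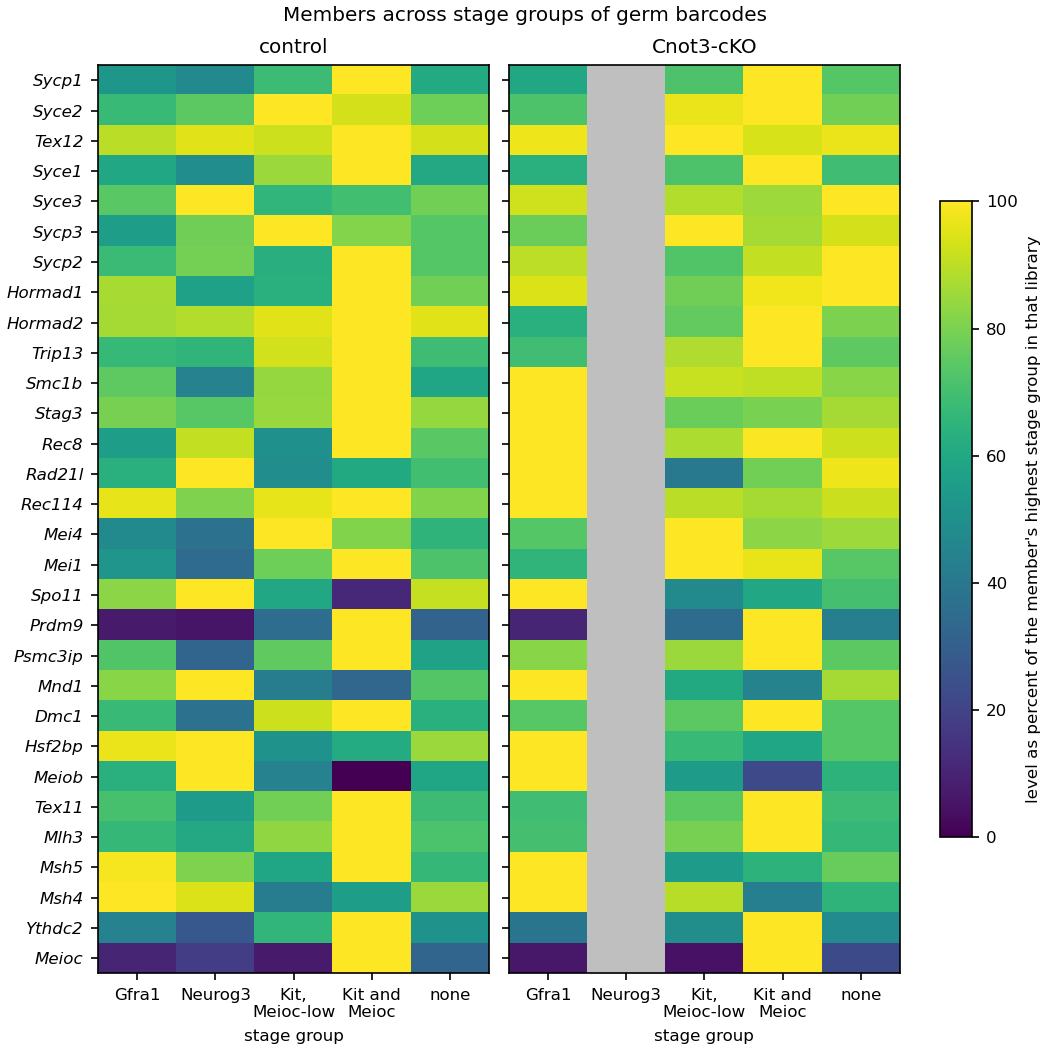
Level of each of the 30 members with 100 or more germ UMIs in each stage group as a percentage of its highest stage group in the same library (colour scale), with control and *Cnot3*-cKO side by side, *Kit*-positive barcodes divided by *Meioc*, and the 12 *Neurog3*-positive *Cnot3*-cKO barcodes greyed out. *Prdm9* peaks in *Kit*- and *Meioc*-positive barcodes of both libraries, while *Smc1b* and *Stag3* peak there in the control and in *Gfra1*-positive barcodes in *Cnot3*-cKO. The peak of *Meioc* in that group follows from its use in the division and is no result.

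The difference between genotypes was also read within each stage group. In *Gfra1*-positive barcodes 7 of 26 members were higher in *Cnot3*-cKO past 1.5-fold, against 7.28% of all genes, and 0 were lower, against 3.44%; the median log2 ratio was 0.31. These were *Stag3* (70.7 and 127 CPM, log2 ratio 0.85), *Smc1b* (312 and 551 CPM, 0.82), *Mei1* (0.79), *Rec8* (0.77), *Mei4* (0.71), *Hormad1* (51.9 and 83.1 CPM, 0.68) and *Sycp2* (0.61). In barcodes with no stage marker 5 of 27 were higher, against 4.67%, and 0 lower, against 6.46%, with a median of 0.26: *Hormad1* (47.0 and 87.9 CPM, 0.90), *Smc1b* (245 and 452 CPM, 0.88), *Prdm9* (0.70), *Sycp2* (0.66) and *Syce1* (0.59). In *Kit*-positive barcodes 2 of 26 were higher, against 3.96%, and 0 lower, against 1.65%, with a median of 0.19: *Hormad1* (42.4 and 72.8 CPM, 0.78) and *Mei1* (8.38 and 13.9 CPM, 0.73).

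*Hormad1* alone was past the fold in each of these 3 groups. *Smc1b* in *Kit*-positive barcodes stood at 364 and 504 CPM (0.47, 0.42 to 0.52), under the fold, and in the *Kit*- and *Meioc*-positive barcodes at 416 and 499 CPM (0.26, 0.15 to 0.37). Whether the stage groups differ in their genotype ratio was not tested. Somatic RNA was also unequal within the stage groups, since 20.6% of control and 43.7% of *Cnot3*-cKO *Gfra1*-positive barcodes held 10 or more somatic UMIs, and its part in the ratios was tested only over all germ barcodes, by leaving such barcodes out.

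The summed level of the members was then read barcode by barcode. Control germ barcodes had a median of 1981 CPM and 5th and 95th percentiles of 1214 and 3242 CPM, and *Cnot3*-cKO germ barcodes had a median of 2512 CPM with percentiles of 1509 and 3903 CPM. The distributions overlapped over most of their range. Among control stage groups the median was 2682 CPM in *Kit*- and *Meioc*-positive, 2256 CPM in other *Kit*-positive, 1703 CPM in *Neurog3*-positive and 1805 CPM in *Gfra1*-positive barcodes. In *Cnot3*-cKO it was 2906, 2529 and 2402 CPM in the first, the second and the last of these groups. The sum includes *Meioc*, which divided the *Kit*-positive barcodes. With *Meioc* left out of the sum, the control medians were 2620 CPM in *Kit*- and *Meioc*-positive and 2247 CPM in other *Kit*-positive barcodes. The *Cnot3*-cKO medians of these groups were then 2852 and 2515 CPM. Sertoli gate barcodes had medians of 133 and 131 CPM.

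**Figure D4:**
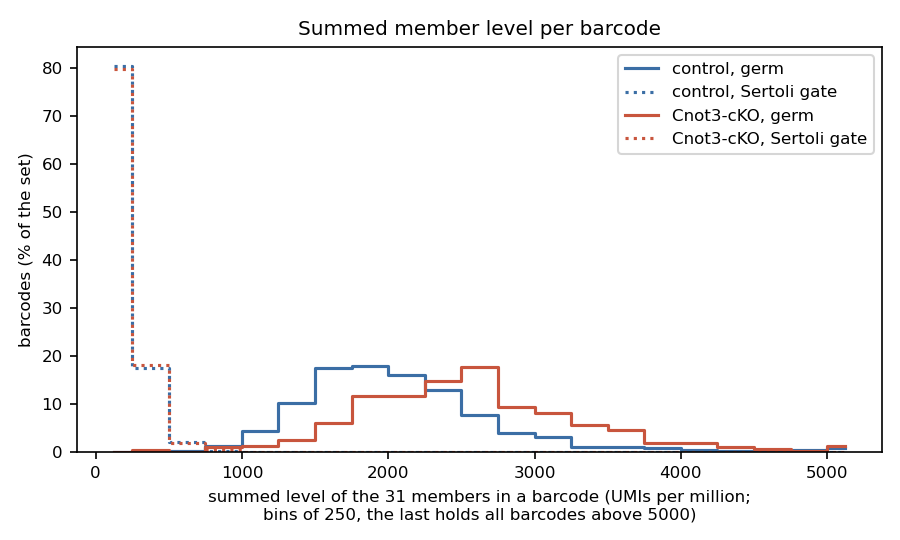
Distribution of the summed level of the 31 members over single barcodes, as a percentage of the barcodes of each set in bins of summed CPM, for germ and Sertoli gate barcodes of both libraries. The germ distributions have medians of 1981 CPM (control) and 2512 CPM (*Cnot3*-cKO) and lie apart from the Sertoli gate barcodes at 133 and 131 CPM.

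The abundant members were spread over the germ population and not held by a few cells. The rare members were seen in few barcodes even at full depth: *Spata22*, *Meiob* and *Msh4* in 1.33%, 5.56% and 8.07% of control germ barcodes. To compare shares at equal depth, each barcode was thinned to 10000 UMIs, which left 1330 control and 559 *Cnot3*-cKO germ barcodes and left out 20 and 5. At that depth the median germ barcode held UMIs of 10 members in the control and 11 in *Cnot3*-cKO, and the median Sertoli gate barcode held UMIs of 1 in either library; without thinning the germ medians were 19 and 20. *Sycp1* was seen in 94.96% and 96.8% of germ barcodes, and in 2.39% and 1.66% of Sertoli gate barcodes.

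The 5 members that were higher past the fold in *Cnot3*-cKO were seen in a larger share of its barcodes. These shares are counted from the same UMIs that placed the 5 past the fold, so they are no separate evidence. *Smc1b* was seen in 87.8% (85.9% to 89.5%) of control and 97.3% (95.6% to 98.5%) of *Cnot3*-cKO germ barcodes, against 2.27% and 2.04% of Sertoli gate barcodes. *Stag3* was seen in 50.5% (47.7% to 53.2%) and 67.4% (63.4% to 71.3%), *Hormad1* in 35.0% (32.4% to 37.6%) and 47.8% (43.6% to 52.0%), *Mei1* in 6.09% (4.87% to 7.51%) and 11.3% (8.77% to 14.2%), and *Meiob* in 1.504% (0.921% to 2.31%) and 2.68% (1.51% to 4.39%), intervals that overlapped. In the Sertoli gate these 4 genes were seen in at most 1.21% of barcodes. Of the 31 members, 25 were seen in a larger share of *Cnot3*-cKO than of control germ barcodes. No matching count over all genes is given here, so this count cannot be set against a background. *Syce2* was seen in fewer, at 86.3% (84.4% to 88.1%) and 78.5% (74.9% to 81.9%), and so was *Meioc*, at 17.7% and 13.4%. Without thinning the shares were 98.4% and 99.5% for *Smc1b*, 89.9% and 95.04% for *Stag3* and 71.8% and 86.7% for *Hormad1*.

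Somatic barcodes showed how far the transcripts of the members reached beyond germ cells. Sertoli gate (2904 and 4389 barcodes) and interstitial gate (3934 and 4221) barcodes held at most 2 UMIs of *Ddx4* plus *Dazl*. In the control, 10 of the 29 members with 100 or more germ UMIs reached 10% of their germ level in the Sertoli gate, against 89.5% of all 12457 genes, and 8 of 29 did so in the interstitial gate, against 90.6% of all genes. The median member stood at 1.58% and 2.17% of its germ level there. The limit of 10% was chosen after the values had been seen. Germ RNA released into the droplets sets a floor: the median of 8 germ reference genes was 0.989% and 0.807% of the germ level, and 1 of the 8, *Tdrd5*, passed 10%.

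Most genes of the axis and the complex were low outside germ cells. *Sycp1* stood at 2.85 CPM in the control Sertoli gate, or 0.78% of its germ level, *Smc1b* at 2.68 CPM (0.91%), *Hormad1* at 0.33 CPM (0.75%) and *Rec114* at 0.64 CPM (0.85%), all near the floor. The members at 10% or more in the Sertoli gate were *Syce2*, *Rec8*, *Rad21l*, *Ythdc2*, *Prdm9*, *Msh5*, *Mlh3*, *Psmc3ip*, *Mnd1* and *Trip13*, and thus came from most of the roles. *Mlh3* stood at 15.3 CPM in the Sertoli gate (67.6% of its germ level) and 18.1 CPM in the interstitial gate (79.9%). *Mnd1* stood at 21.4 and 20.8 CPM (56.6% and 55.1%), *Psmc3ip* at 26.5 and 16.9 CPM (45.9% and 29.3%) and *Ythdc2* at 16.4 and 13.7 CPM (52.2% and 43.8%). *Trip13*, which also acts in the spindle checkpoint, stood at 19.8 and 12.2 CPM (22.1% and 13.6%).

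Some members differed between the somatic gates. *Syce2* stood at 44.7 CPM in the Sertoli gate and 22.4 CPM in the interstitial gate of the control, and at 43.9 and 18.4 CPM in *Cnot3*-cKO. *Rec8* stood at 1.85 and 0.42 CPM in the control and at 2.20 and 0.38 CPM in *Cnot3*-cKO. *Dmc1* went the other way, with 0.74 CPM in the Sertoli gate and 5.28 CPM in the interstitial gate of the control, and 0.53 and 6.91 CPM in *Cnot3*-cKO. *Msh5* stood at 1.31 and 3.99 CPM in the control and at 1.44 and 3.68 CPM in *Cnot3*-cKO. These orders were the same in both libraries. *Spata22* had 0 UMIs in either somatic gate of both libraries, where a count of 0 allows 3 UMIs.

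**Figure D5:**
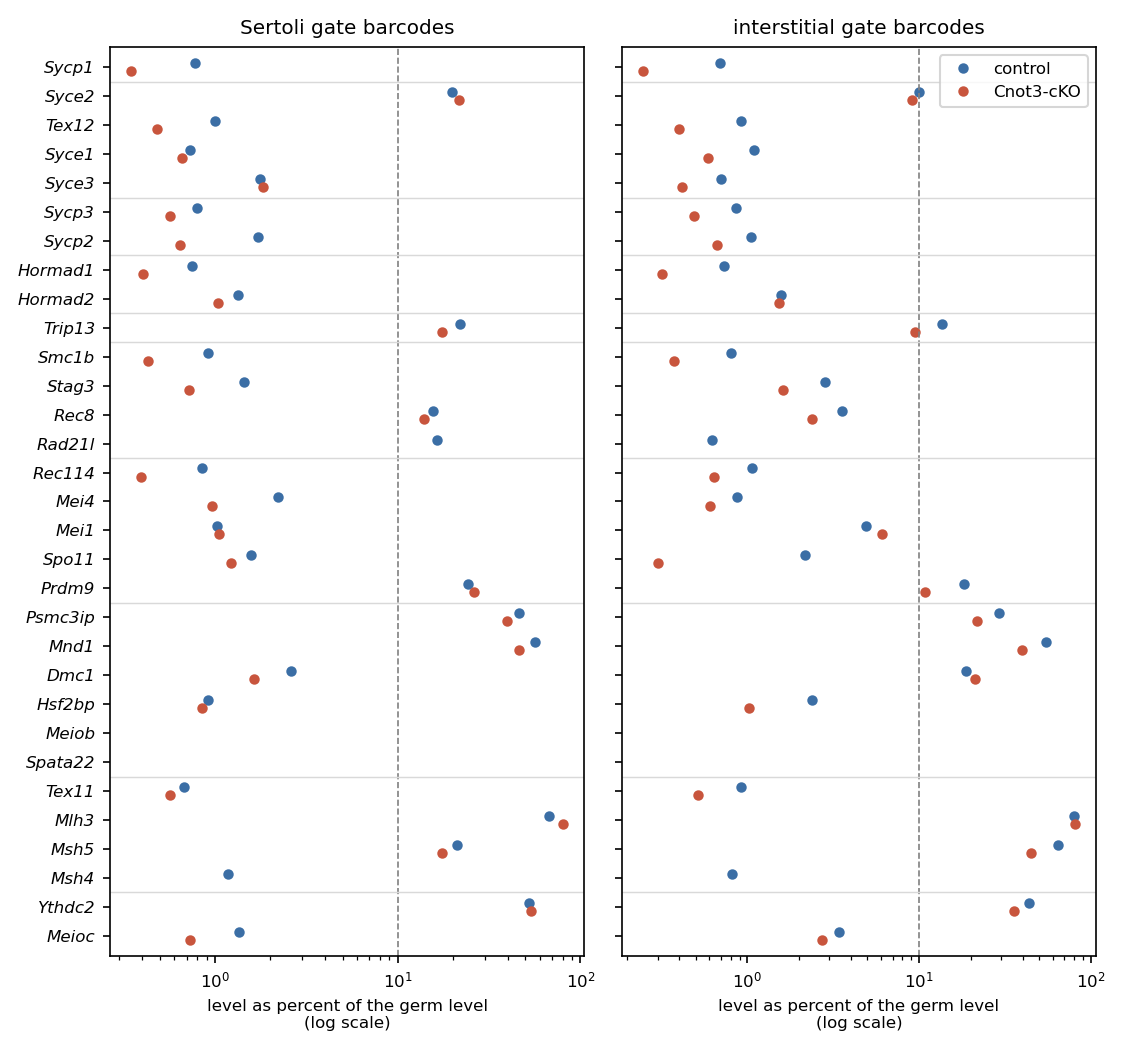
Level of each member in the Sertoli gate (left) and the interstitial gate (right) as a percentage of its germ level in the same library, on a log axis, with 1 point per library for members with 100 or more germ UMIs in it and a dashed line at 10%. *Mlh3*, *Mnd1*, *Ythdc2* and *Psmc3ip* lie to the right, and most axis and synaptonemal complex genes lie near 1%.

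The germ barcodes of the libraries differed in transcripts of the proliferation genes *Mki67* and *Top2a*. With 2 or more UMIs of *Mki67* plus *Top2a* after thinning to 10000 UMIs, a rule set after the data had been seen, 58.9% (56.2% to 61.5%) of control and 81.0% (77.5% to 84.2%) of *Cnot3*-cKO germ barcodes counted as cycling, against 15.4% and 13.6% in the Sertoli gate. Several members moved with this measure. In control germ barcodes *Prdm9* stood at 5.65 CPM in cycling and 2.39 CPM in other barcodes (log2 ratio 1.24), *Meioc* at 26.2 and 13.7 CPM (0.93), *Ythdc2* at 38.6 and 20.8 CPM (0.89), and *Smc1b* at 352 and 210 CPM (0.74). The sign was the opposite for *Msh4*, at 1.45 and 2.86 CPM (-0.98), and for *Mnd1*, at 31.4 and 47.3 CPM (-0.59).

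*Mnd1* thus had opposite signs in germ and Sertoli cells. In the control Sertoli gate it stood at 43.3 CPM in cycling and 16.0 CPM in other barcodes, *Psmc3ip* at 53.4 and 20.2 CPM and *Trip13* at 47.6 and 13.3 CPM, whereas *Mlh3* stood at 15.1 and 15.7 CPM. The division of germ barcodes also follows stage. *Mki67* and *Top2a* were lower in *Neurog3*-positive than in *Gfra1*-positive control barcodes (log2 ratios -2.34 and -1.52), and stage and cycling were not separated. Within cycling germ barcodes 3 of 29 members were higher in *Cnot3*-cKO past 1.5-fold, against 6.45% of all genes (*Msh4* 0.90, *Hormad1* 0.73 and *Smc1b* 0.59 as log2 ratios), and 0 were lower, against 2.94%, with a median of 0.23. Within the other germ barcodes 5 of 26 were higher, against 6.46% of all genes (*Mei1* 1.01, *Smc1b* 0.88, *Hormad1* 0.83, *Stag3* 0.60 and *Sycp2* 0.59), and 0 were lower, against 5.74%, with a median of 0.29. *Hormad1* and *Smc1b* were past the fold on either side of the division, but *Smc1b* in cycling barcodes lay at the limit (0.5854 against 0.58496). The ratio of *Msh4* in cycling barcodes rested on 49 control and 58 *Cnot3*-cKO UMIs. In the other barcodes *Msh4* fell below the UMI minimum.

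Other genes of meiosis, on a list of 33 chosen with earlier results of these data known, had a median log2 ratio of 0.22 between the genotypes. Of these, 4 were higher past 1.5-fold (*Mus81* 0.86, *4930432K21Rik* 0.79, *Terb1* 0.78 and *Tex19.1* 0.60). Over all genes 6.42% were higher and 3.35% lower past that fold. The 1 gene of this list that was lower past the fold was *Stra8*, at 200.05 and 125.3 CPM (-0.68). *Stra8* is the retinoic acid target that starts the meiotic programme. Of 10 listed regulators of meiotic genes that are no members, 9 had a ratio below 0, against 6428 of all 13350 genes. Their median was -0.34, and 1 was lower past the fold (*Rarg*, a retinoic acid receptor, -1.03). *Dazl*, 1 of the 9 below 0, had -0.06, but its UMIs also set the germ gate. The list mixes repressors of meiotic genes with other regulators, so a shared sign has no single meaning. *E2f6*, *Max* and *L3mbtl2*, subunits of a repressor complex that holds meiotic genes off, had -0.41, -0.47 and -0.35. *Mga* and *Pcgf6* of the same complex had -0.10 and -0.14. None of these subunits was past the fold, and they were named after their values had been seen. Whether their levels bear on those of the members was not tested. Of the mitotic counterparts of the members and proliferation genes (10 genes), 1 was higher past the fold, *Top2a* (0.61), and the median was 0.38. The counterparts are set beside the members they resemble. The cohesin subunits *Smc1a*, *Smc3*, *Rad21*, *Stag1* and *Stag2* had log2 ratios of -0.11, 0.44, 0.25, 0.12 and 0.26. The mitotic SMC subunit gene thus lay below 0 and its meiotic paralog *Smc1b* at 0.77. Of the markers of stem-like spermatogonia 3 of 3 were higher past the fold (*Gfra1* 1.21, *Lhx1* 0.85 and *Etv5* 0.80), and *Neurog3* and *Kit* had log2 ratios of -2.10 and -0.36. Of 9 genes of later spermatocytes and spermatids, 4 had enough UMIs and 2 were higher past the fold (*Ldhc* 1.62 and *Hist1h1t* 0.999). Its spermatid genes differed in detection. *Prm1*, a protamine, had 0 UMIs in both libraries, whereas *Tnp1* had 367 and 228 UMIs (6.39 and 8.71 CPM). *Acrv1* and *Prm2* had 0 UMIs in the control and 4 and 3 in *Cnot3*-cKO.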

How the data were processed

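The authors sorted CD9+/THY1+ cells, prepared 10x Genomics 3′ libraries and made gene-by-barcode matrices with Cell Ranger 3.0.1 on mm10 with Ensembl 93, as the study's methods and the submitters' processing notes give it. The deposited values are raw UMI counts, with 2 labelled samples merged in each of 2 matrices. Here barcodes were called where their UMIs, times 10, exceeded the 99th percentile among the 3000 largest, which set thresholds of 7977 and 7664 UMIs and kept 89.7% and 89.0% of all UMIs, and no mitochondrial limit was set. Median mitochondrial shares of germ barcodes were 10.3% in the control and 9.17% in *Cnot3*-cKO, and 613 and 356 germ barcodes had up to 10%. Scrublet (scanpy 1.11.5) marked 486 and 459 doublets (5.83% and 4.92%), which were kept. The germ minimum was 10 UMIs of *Ddx4* plus *Dazl*, somatic barcodes held at most 2 and passed a gate of 10 UMIs of Sertoli (*Amh*, *Sox9*, *Aard*, *Cst9*, *Rhox8*) or interstitial genes (*Col1a1*, *Col1a2*, *Col3a1*, *Dcn*, *Pdgfra*), and stage groups were exclusive. Germ barcodes near the limit, with 10 to 19 UMIs, numbered 77 and 22, and 58 and 46 further barcodes had 3 to 9. UMIs were summed per library and group, and ratios needed 100 UMIs over both sides, with no pseudocount. Intervals are exact (Poisson, conditional binomial and Clopper-Pearson, 95%; Python 3.11.15, scipy 1.17.1). With 1 library per genotype no test was run. The script was tested on simulated data. The members, the lists and the thresholds were chosen with earlier results of these data known. Named genes were all members, genes of the other lists past the fold (at most 8 a list), and mitotic counterparts. *Kit*, *Prm1*, *Tnp1*, *Acrv1*, *Prm2*, *Tdrd5*, *E2f6*, *Max*, *L3mbtl2*, *Mga* and *Pcgf6* were chosen after their values were seen. Alternatives are described with the limits.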

Additional observations from a re-analysis of the deposited data

How the results depend on the processing

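No paired analysis was possible because each matrix merges both samples of a genotype, and leaving out a replicate was not possible for the same reason. Of the summary values recomputed under the alternatives, 134 stayed close to the reported ones and 21 did not, and no called direction turned. The study's filters (236 and 65 germ barcodes) gave 3 members higher in *Cnot3*-cKO in place of 5. The cycling germ barcodes also gave 3, of 29 measured, against 6.45% of all genes. For the other alternatives in this paragraph no share of all genes past the fold is given. Their counts therefore cannot be set against a background, and fewer members can reach the UMI minimum in smaller sets of barcodes. In *Kit*-positive barcodes the count was 1 with stage markers at 1 UMI and 4 with sums of the study's markers, in place of 2, and with no stage marker it was 3 with markers at 3 UMIs, 3 after thinning to 20000 UMIs and 2 with sums of markers, in place of 5. Members past 2-fold between *Kit*- and *Gfra1*-positive control barcodes numbered 2 with up to 10% mitochondrial UMIs and 2 with the study's filters, in place of 4. Their median of 0.22 became 0.14 with the mitochondrial limit, 0.48 with the study's filters, 0.11 relative to all genes, 0.30 with barcodes weighted equally, 0.15 at a minimum of 50 UMIs and 0.31 with markers at 1 UMI. In *Cnot3*-cKO the count of 1 became 2 at a germ minimum of 5, 3 at a minimum of 50 UMIs, 2 with markers at 1 UMI, 2 with *Gfra1* read first and 3 with sums of markers, and the median of 0.12 became 0.55 with the study's filters, from 4 members. The causes were not tested. Depth limited *Spata22*, *Meiob*, *Msh4* and *Rad21l* most.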
